A study of Mus musculus with 12 samples.

Results

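Obstruction of the ureter and antibody-induced glomerulonephritis were compared in mice that lack Smad3, to see which noncoding transcripts differed between the kidney injuries when this branch of the TGF-β pathway is missing. By their source labels, 4 of the 12 libraries of the series belong to the comparison: 2 from Smad3 knockout (KO) kidneys after unilateral ureteral obstruction (UUO), and 2 from KO kidneys with glomerulonephritis raised by antibody to the glomerular basement membrane (anti-GBM). All animals were on the C57BL/6J background. For UUO, per the labels' protocols, the left ureter was tied and that kidney was taken at day 5; groups of 8 mice of both genders were used. For anti-GBM nephritis, mice were first immunised with IgG of sheep, given with Freund's complete adjuvant, and 5 days later received sheep globulin against mouse GBM at 60 μg per g of body weight; the series design gives day 10 for these kidneys, and the protocol leaves unclear from which injection that day is counted. The 2 KO normal libraries and the wild-type (WT) UUO, anti-GBM and normal libraries, 2 of each, serve as levels beside the comparison; the protocol names sham-operated and normal mice as controls, and the library labels say normal. No group carries another allele or agent in the labels. The labels do not give the ages, the sex of each animal or the kind of Smad3 allele, and they do not say whether the 2 libraries of a group are separate animals, so p-values measure the spread between these libraries. The models also differ in the day of harvest, which cannot be told apart from the kind of injury.

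Smad3 is a transcription factor that the TGF-β receptor activates by phosphorylation; it enters the nucleus with Smad4 and switches on genes of matrix production, and TGF-β signalling through Smad3 is a known driver of fibrosis in the kidney. Ureteral obstruction injures mainly the tubules and the interstitium, through pressure, tubular cell loss and interstitial fibrosis, whereas anti-GBM antibody starts an immune attack on the glomerulus. The deposited tables hold putative noncoding transcripts: long noncoding RNAs, spliced fragments that match cDNAs, precursors of microRNAs, the small nucleolar RNAs (snoRNAs) that guide chemical modification of ribosomal RNA, the related small Cajal body RNAs (scaRNAs) that guide modification of spliceosomal RNA, and regulatory elements that lie inside mRNAs. Smad3 itself and the collagens were not analysed here, so the knockout was not checked at its own gene, and of the markers of kidney cell types only the mRNA elements of vimentin, Spi1 and renin had a transcript.

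Each library was a kidney RNA pool freed of ribosomal RNA and cut to RNAs over 150 bp. Reads on the listed transcripts came to between 5237456 and 6944047 in the 4 libraries, and 42452 transcripts, 10852 with a database match and 31600 predicted without one, had a read in at least 1 library of the series. In both arms the libraries differed from each other. KO UUO 1 and KO anti-GBM 1 had a low breadth of coverage, which is the length covered by reads divided by the length that randomly placed reads would cover (0.285 and 0.338), while KO UUO 2 and KO anti-GBM 2 reached 0.787 and 0.636. A single 290-base transcript, ncRNA_aligned_7824, took 15.7% and 36.4% of the reads of the low-breadth pair and 2.02% and 5.99% of the other pair. The median absolute log2 difference between replicates was 0.801 for KO UUO and 0.763 for KO anti-GBM, against 0.389 for KO normal. Because each KO arm holds 1 library of each kind, differences were also computed within the low-breadth pair (KO UUO 1 minus KO anti-GBM 1) and within the higher-breadth pair (KO UUO 2 minus KO anti-GBM 2). WT UUO 1 also had a low breadth (0.447), beside 0.911 in WT UUO 2 and 0.823 and 0.879 in the WT anti-GBM libraries. Breadth is thus not balanced between the WT models. Values are CPM, the read count relative to the TMM-scaled library size, in the order library 1 and library 2, and a log2 difference is KO UUO minus KO anti-GBM, ± its standard error. In whole kidney, fewer cells of a type and less RNA per cell cannot be told apart.

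Of 24816 transcripts tested, 6 passed a Benjamini-Hochberg adjusted p under 0.05 in edgeR's quasi-likelihood test, 0.0242%: 5 were lower and 1 was higher in KO UUO than in KO anti-GBM. DESeq2's size factors gave 3 higher and 5 lower, and library size alone gave 168 higher and 9 lower. The count was 0 without KO anti-GBM 2, 3 without either WT normal library, 22 and 34 without WT UUO 1 and WT UUO 2, 24 without KO anti-GBM 1 and 91 without KO UUO 2. The 5 transcripts lower in UUO were all matched to a database entry, and the 1 higher was a predicted transcript. An unadjusted p under 0.05 was reached by 2126 transcripts in the direction of UUO (8.57%) and by 1116 in the direction of anti-GBM (4.5%).

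The widest gap among the 5 on a level above 1000 CPM was that of ncRNA_aligned_4212, a transcript of 7224 bases matched to the cDNA AK085897, which its entry describes as noncoding. It had 82.7 and 184 CPM in the KO UUO libraries and 1333 and 2873 CPM in the KO anti-GBM libraries. The KO normal libraries had 238 and 170.5 CPM, so both anti-GBM libraries stood above every other KO library and the UUO libraries lay around or below the normal ones. The log2 difference was -3.98 ± 0.55, a 15.8-fold higher level in anti-GBM (adjusted p = 0.00293), and it was alike in the pairs, at -4.01 and -3.97 in the low-breadth and the higher-breadth pair. In WT kidneys the levels were 124 and 338 CPM with UUO and 470.4 and 306 CPM with anti-GBM, which overlap. Reads covered 47.5 and 89.4% of the transcript's length in the UUO libraries and 64.3 and 83.2% in the anti-GBM libraries. The covered part was smaller in the low-breadth library of each arm, where a large part of the transcript had no read. The call held in 11 of 12 fits that each left out 1 library; without KO anti-GBM 2 the adjusted p was 0.0645.

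In the next 3 calls both UUO libraries lay below both normal libraries, and the anti-GBM libraries lay above them or, in ncRNA_aligned_3665, on either side of them. The UUO and anti-GBM libraries chose these calls, so the order is a description. The share of all tested transcripts with UUO below normal was not counted. ncRNA_aligned_2187 and ncRNA_aligned_3665 match regions that RNAz, a program that finds conserved RNA structure, put forward as noncoding; ncRNA_aligned_6523 matches such a region from EvoFold, a program of the same purpose. ncRNA_aligned_2187 had 145 and 193 CPM in UUO against 1581 and 2970 CPM in anti-GBM. In KO normal it had 1469 and 557 CPM, so each UUO library was below both normal libraries, and each anti-GBM library was above both. Its log2 difference was -3.75 ± 0.52 (adjusted p = 0.00293), -3.45 and -3.94 within the pairs. ncRNA_aligned_6523 had 123 and 98.7 CPM in UUO against 629 and 1630 CPM in anti-GBM and 529.9 and 372 CPM in KO normal. Again both UUO libraries were the lowest and both anti-GBM libraries the highest of the KO libraries, with a log2 difference of -3.35 ± 0.49 (adjusted p = 0.00409).

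ncRNA_aligned_3665 had 438 and 403 CPM in UUO against 1305 and 4263 CPM in anti-GBM and 1571 and 1345 CPM in KO normal. Here the UUO libraries were clearly the lowest, while the anti-GBM libraries lay on either side of the normal ones. The log2 difference was -2.73 ± 0.46 (adjusted p = 0.0227) and was -1.58 and -3.40 within the pairs. All 3 were also lower in UUO than in anti-GBM in WT, with smaller gaps but without overlap, as 20.6% of all tested transcripts were. In WT, ncRNA_aligned_2187 had 129 and 201 against 243 and 264 CPM, and ncRNA_aligned_6523 had 34.3 and 39 against 86.5 and 151 CPM. The WT levels of ncRNA_aligned_3665 were 203 and 296 against 414 and 442 CPM. The test of the difference between genotypes (the interaction) was not passed by any of the 3, with adjusted p = 0.22, 0.604 and 0.545 in that order. Leaving out KO anti-GBM 2 ended the call for all 3. Leaving out KO UUO 1 also ended it for ncRNA_aligned_2187 and ncRNA_aligned_3665, and leaving out either WT normal library ended it for ncRNA_aligned_3665; the largest adjusted p in these fits were 0.0645, 0.09 and 0.155 for ncRNA_aligned_2187, ncRNA_aligned_6523 and ncRNA_aligned_3665.

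The fifth, ncRNA_aligned_6640, is a scarce transcript of 1892 bases matched to a mouse long noncoding RNA entry. It had 0.532 and 1.17 CPM in KO UUO, 20.9 and 9.26 CPM in KO anti-GBM and no read in either KO normal library. The nephritis libraries were thus the highest of the KO libraries, and the log2 difference was -4.15 ± 0.73 (adjusted p = 0.0415). In WT the order between the injuries was the same, 0.894 and 0.588 against 5.49 and 5.66 CPM, but the WT normal libraries had 88.1 and 84.6 CPM, far above the KO normal libraries. It was called in 5 of the 12 fits without 1 library, and it lost the call without either KO anti-GBM library, KO UUO 1, or any of the WT anti-GBM or WT normal libraries, with adjusted p up to 0.197.

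ncRNA_predict_2563, a predicted transcript of 3503 bases with no database match, was higher in UUO. It had 38.3 and 43.3 CPM in KO UUO against 2.32 and 3.54 CPM in KO anti-GBM, beside 4.67 and 9.53 CPM in KO normal, so UUO was the highest and anti-GBM the lowest of the KO states. The log2 difference was 3.78 ± 0.64 (adjusted p = 0.0227), 13.8-fold. WT kidneys had the same order, 52.7 and 50.5 CPM with UUO and 14.5 and 13.6 CPM with anti-GBM, without overlap. Leaving out KO anti-GBM 1, KO anti-GBM 2, or either WT normal library ended the call, with adjusted p up to 0.0969. A stricter filter, a mean of 10 CPM or more, kept this call alone of the 6. It was lost in the 4 libraries of the comparison alone (adjusted p = 0.0769), with limma on log2(RPKM + 1) (0.0958) and with limma's voom (0.657). The 5 matched calls were lost with limma at either RPKM offset, 4 of them, all but ncRNA_aligned_4212, with voom, and ncRNA_aligned_6640 also in the 4 libraries alone.

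**Figure D1:**
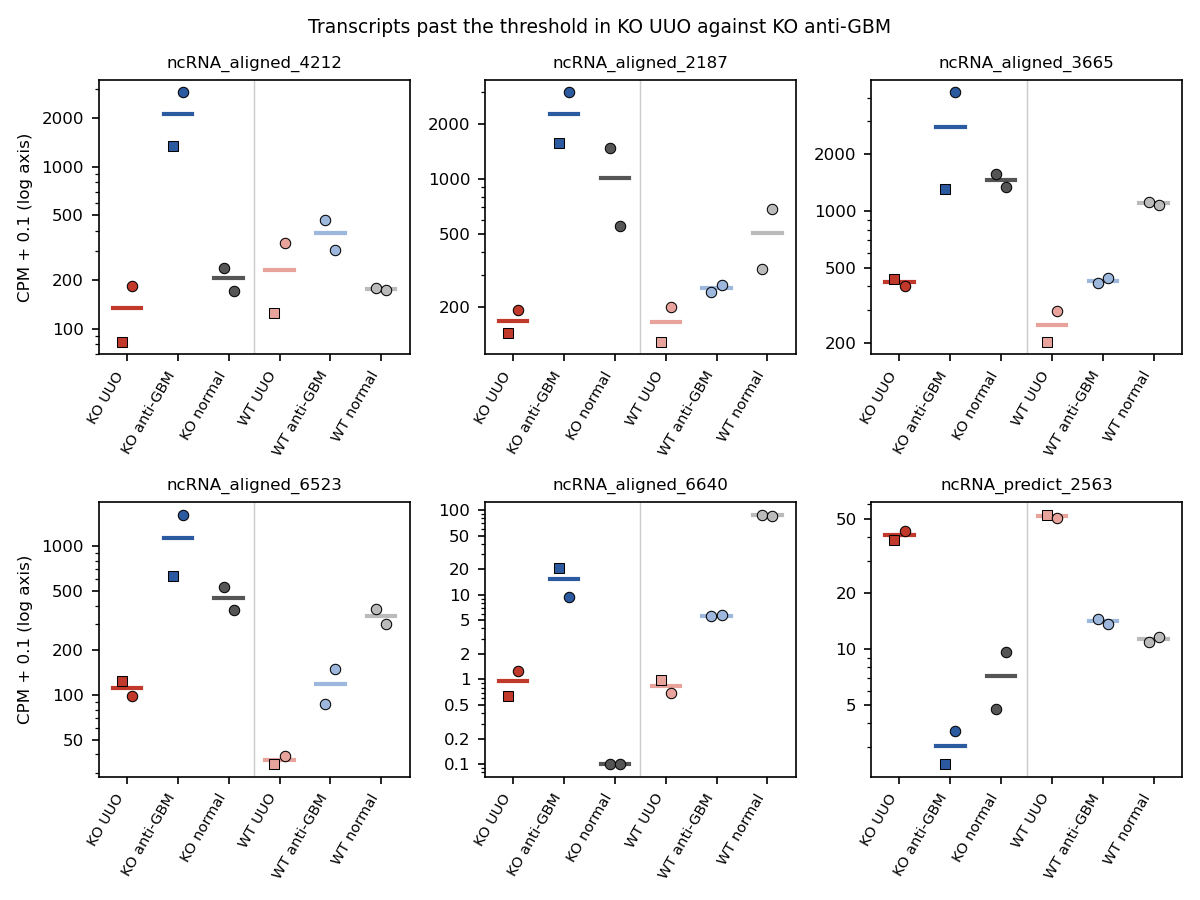
Level of the 6 transcripts past the threshold in each library, as CPM + 0.1 on a log axis, with the 6 groups of the series along the horizontal axis; squares are the 3 libraries of low breadth, circles the others, and bars the group means. The 2 KO UUO libraries lie below both KO anti-GBM libraries for the 5 matched transcripts and above them for ncRNA_predict_2563.

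Transcripts that ranked next by p without passing the threshold were described by the same rule: a mean of 10 CPM or more over the 4 libraries and no overlap between the groups. Lack of overlap alone was common, at 22.2% of tested transcripts with UUO higher and 11.4% with UUO lower. The 10 matched transcripts of smallest p with UUO higher had log2 differences from 2.09 to 7.0, and adjusted p from 0.0691 to 0.135. In 8 of the 10 both UUO libraries stood above both KO normal libraries, as in 16.7% of all tested transcripts, and in 4 both anti-GBM libraries stood below them, as in 28.6% of all. These counts use the libraries that chose the transcripts and are a description.

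First among these was ncRNA_aligned_6916, a long transcript of 11781 bases matched to the cDNA AK036034. It had 1511 and 1322 CPM in UUO against 327 and 279 CPM in anti-GBM and 138 and 138 CPM in KO normal, with little spread inside each group. The log2 difference was 2.22 ± 0.42 (adjusted p = 0.0691) and was 2.21 and 2.24 in the pairs. WT kidneys showed the same order, with 1529 and 755 CPM in UUO against 341 and 239 CPM in anti-GBM and 99.4 and 79.1 CPM in normal kidneys, and the interaction was 0.25 ± 0.56 (adjusted p = 0.955). Reads covered 96.1 and 99.6% of it in UUO and 88.6 and 98.2% in anti-GBM.

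ncRNA_aligned_2671 (AK053167, 9515 bases) had 469 and 306 CPM in UUO against 112 and 70.5 CPM in anti-GBM and 38.4 and 117 CPM in KO normal (log2 difference 2.09 ± 0.53, adjusted p = 0.129); here anti-GBM overlapped with normal. ncRNA_aligned_7055 (AK041064) had 204 and 228 CPM in UUO against 55.1 and 42.7 CPM in anti-GBM, and ncRNA_aligned_3016 (AK011225) had 94.3 and 121 against 33 and 14.4 CPM. ncRNA_aligned_3314 (AK089314) was scarcer, at 18.5 and 35.6 against 3.61 and 3.74 CPM. In this last transcript the WT kidneys had a wider gap, 80.3 and 171 CPM with UUO against 9.52 and 13.5 CPM with anti-GBM, though the interaction was -0.57 ± 0.87 (adjusted p = 0.917).

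ncRNA_aligned_9077, ncRNA_aligned_923 and ncRNA_aligned_2279 differed in KO by log2 3.17, 3.31 and 2.91. In the first 2 the WT values of the models overlapped: ncRNA_aligned_9077 had 12.4 and 13.9 CPM with UUO and 9.64 and 12.9 CPM with anti-GBM, and ncRNA_aligned_923 had 18.8 and 19.4 and 19.2 and 15 CPM. In KO they had 41.9 and 30.1 against 4.64 and 3.35 CPM and 25 and 72.4 against 5.67 and 4.14 CPM, and the interaction reached adjusted p = 0.541 and 0.545. ncRNA_aligned_781, matched to AK141413, had the widest log2 difference of the 10, 7.0 ± 1.55, from 8.94 and 55.5 CPM in UUO against 0.515 and 0 CPM in anti-GBM. Its reads covered at most 5.69% of its 5116 bases in any of the 4 libraries, so they came from a short stretch.

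Among fixed readouts with long matches, ncRNA_aligned_1946 (AK016173) had 8120 and 4877 CPM in UUO against 3332 and 1412 CPM in anti-GBM, and ncRNA_aligned_1409 (AK083502) had 799 and 567 against 265 and 230.4 CPM. The groups did not overlap in either, with log2 differences of 1.45 ± 0.42 and 1.46 ± 0.45 (adjusted p = 0.185 and 0.222). ncRNA_aligned_2048 (AK032794) was at 54.9 and 59.7 and 21.6 and 25.2 CPM in KO, a log2 difference of 1.29 ± 0.46, but at 275 and 481 CPM with UUO against 14.5 and 13.6 CPM with anti-GBM in WT. That wider WT gap gave an interaction of -3.46 ± 0.65 (adjusted p = 0.106), which missed the threshold.

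In the direction of anti-GBM, 5 more matched transcripts were described, with log2 differences from -2.75 to -1.88 and adjusted p = 0.0988. Of these, ncRNA_aligned_8234 matches the gammaretrovirus core encapsidation signal, the RNA stem-loops by which a murine retrovirus packages its genome; copies of such viruses are part of the mouse genome. It had 335 and 271 CPM in UUO against 1798 and 1175 CPM in anti-GBM and 48.1 and 109 CPM in KO normal. Both injuries were therefore above normal KO kidney, the nephritis libraries most. The log2 difference was -2.29 ± 0.48, 4.91-fold, and -2.42 and -2.12 in the pairs. WT kidneys had 91.9 and 188 CPM with UUO, 1513 and 773 CPM with anti-GBM and 366 and 372 CPM in normal kidneys, so the injuries were in the same order in WT, with UUO below normal there.

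The other transcript with this match, ncRNA_aligned_8305, had 8.73 and 1.67 CPM in UUO against 76.8 and 11 CPM in anti-GBM (log2 difference -3.05 ± 0.99, adjusted p = 0.266), with reads on at most 16.1% of its length. Endogenous retroviral copies are near-identical to each other. The counts are of uniquely mapped reads, so reads that fit several copies may be missing from them. A further fixed readout, ncRNA_aligned_4113 (AK133569, described as noncoding), had 1473 and 1529 CPM in UUO against 6086 and 8647 CPM in anti-GBM. KO normal kidneys had only 346 and 515 CPM, so it followed the same order of the 3 states as ncRNA_aligned_8234, with a log2 difference of -2.30 ± 0.49 (adjusted p = 0.106). In WT it had 441 and 1183 CPM with UUO and 8451 and 2805 CPM with anti-GBM.

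Of the remaining 4, ncRNA_aligned_6547 (AK008208) had 270.2 and 404 CPM in UUO against 942 and 1546 CPM in anti-GBM and 1136 and 1199 CPM in KO normal, so that UUO alone stood apart from normal. ncRNA_aligned_5063 (AK008597) had 128 and 186 against 603 and 772 CPM, with 259.7 and 496 CPM in KO normal, and ncRNA_aligned_5022 (EvoFold) had 19.5 and 20.1 against 128 and 93.9 CPM, with 42.2 and 45.4 CPM. In both, UUO lay below and anti-GBM above the normal libraries. ncRNA_aligned_777 (AK087021) had 11.6 and 17.4 CPM in UUO against 58.5 and 136 CPM in anti-GBM, and it went the other way in WT, where UUO had 65.4 and 70.4 CPM and anti-GBM 36.1 and 22 CPM.

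The 5 predicted transcripts of smallest p with UUO higher, ncRNA_predict_2563 among them, had log2 differences from 2.07 to 3.78. In all 5 both anti-GBM libraries lay below both KO normal libraries, as in 28.6% of all tested transcripts. The same anti-GBM libraries chose these transcripts, so the count is a description. ncRNA_predict_3772, for example, had 12.2 and 48.2 CPM in UUO against 1.55 and 3.54 CPM in anti-GBM and 37.2 and 17.9 CPM in KO normal. In WT its models overlapped, with 21.3 and 39.8 CPM after obstruction and 37 and 59.8 CPM in anti-GBM (interaction 4.20 ± 0.95, adjusted p = 0.309). The 5 predicted transcripts lower in UUO had log2 differences from -5.51 to -2.21. The most abundant by reads was ncRNA_predict_10188, 300 bases long, with 102 and 95.4 CPM in UUO against 617 and 306 CPM in anti-GBM, and the one with the widest gap was ncRNA_predict_5104, with 0.958 and 0.502 against 23.2 and 46.7 CPM.

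Elements inside mRNAs may give a glimpse of known genes of fibrosis and inflammation, since a transcript that matches such an element may carry a piece of that mRNA. Read assignment and strand setting are not given, so the values below need not be those of the mRNAs. ncRNA_aligned_6524 matches the CAESAR element, a repressive stem-loop in the 3′ untranslated region of the mRNA of connective tissue growth factor (CTGF), a matrix-associated growth factor that TGF-β induces. It had 189.8 and 202 CPM in KO UUO, 825 and 487 CPM in KO anti-GBM and 299.7 and 107 CPM in KO normal. Both nephritis libraries were above all other KO libraries, whereas the UUO libraries lay within the range of the normal ones. The log2 difference was -1.74 ± 0.48, 3.35-fold, and it missed the threshold (adjusted p = 0.171). In WT, 189 and 235 CPM with UUO and 306 and 176 CPM with anti-GBM overlapped.

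Vimentin, the intermediate filament protein of fibroblasts and other mesenchymal cells, was read through a protein-binding region of its 3′ untranslated region (ncRNA_aligned_976). Its levels were 198 and 497 CPM in KO UUO against 439 and 883 CPM in KO anti-GBM, which overlap. KO normal had 176 and 345 CPM, so both anti-GBM libraries stood above both normal ones, and the UUO libraries lay on either side of the higher normal library. The log2 difference of -0.93 ± 0.49 had adjusted p = 0.41. In WT the mean order was the reverse, 347 and 634 CPM with UUO above 268 and 196 CPM with anti-GBM without overlap, and the interaction was -2.01 ± 0.70 (adjusted p = 0.59).

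Renin, the enzyme secreted by juxtaglomerular cells that starts the angiotensin cascade, was read through its mRNA stability element (ncRNA_aligned_2307). It had 311 and 379.6 CPM in KO UUO against 562 and 1238 CPM in KO anti-GBM, with 131 and 522 CPM in KO normal. In WT it had 83.6 and 126 CPM with UUO but only 5.12 and 20.6 CPM with anti-GBM, beside 220.4 and 144 CPM in normal kidneys. The order of the injuries was therefore opposite in the genotypes without overlap in either, but the interaction, -4.41 ± 0.99, did not pass (adjusted p = 0.473), and the KO difference of -1.38 ± 0.68 did not either (adjusted p = 0.402).

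Spi1 (PU.1), a transcription factor of macrophages and other myeloid cells, was read through an element of its 5′ untranslated region (ncRNA_aligned_3717). In KO it had 13.4 and 16.6 CPM with UUO and 8.76 and 7.09 CPM with anti-GBM, and KO normal libraries had 0.609 and 16.3 CPM, so the injured kidneys lay within or close to the normal range. In WT, UUO had 44.8 and 50.7 CPM and anti-GBM 11.5 and 11.4 CPM. The KO log2 difference was 0.92 ± 0.82 (adjusted p = 0.631). The nuclear long noncoding RNA Neat1, the scaffold of paraspeckles, had 272 and 183 CPM with UUO and 587 and 236 CPM with anti-GBM in KO, which overlapped (log2 difference -0.86 ± 0.72, adjusted p = 0.619). Over all 23 mRNA elements tested of 28 listed, none passed the adjusted threshold, 2 had an unadjusted p under 0.05, both lower in UUO. That is 8.7%, near the 8.55% of matched transcripts and against 4.5% of all. The median log2 difference was -0.70, against -0.10 for all matched transcripts.

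**Figure D2:**
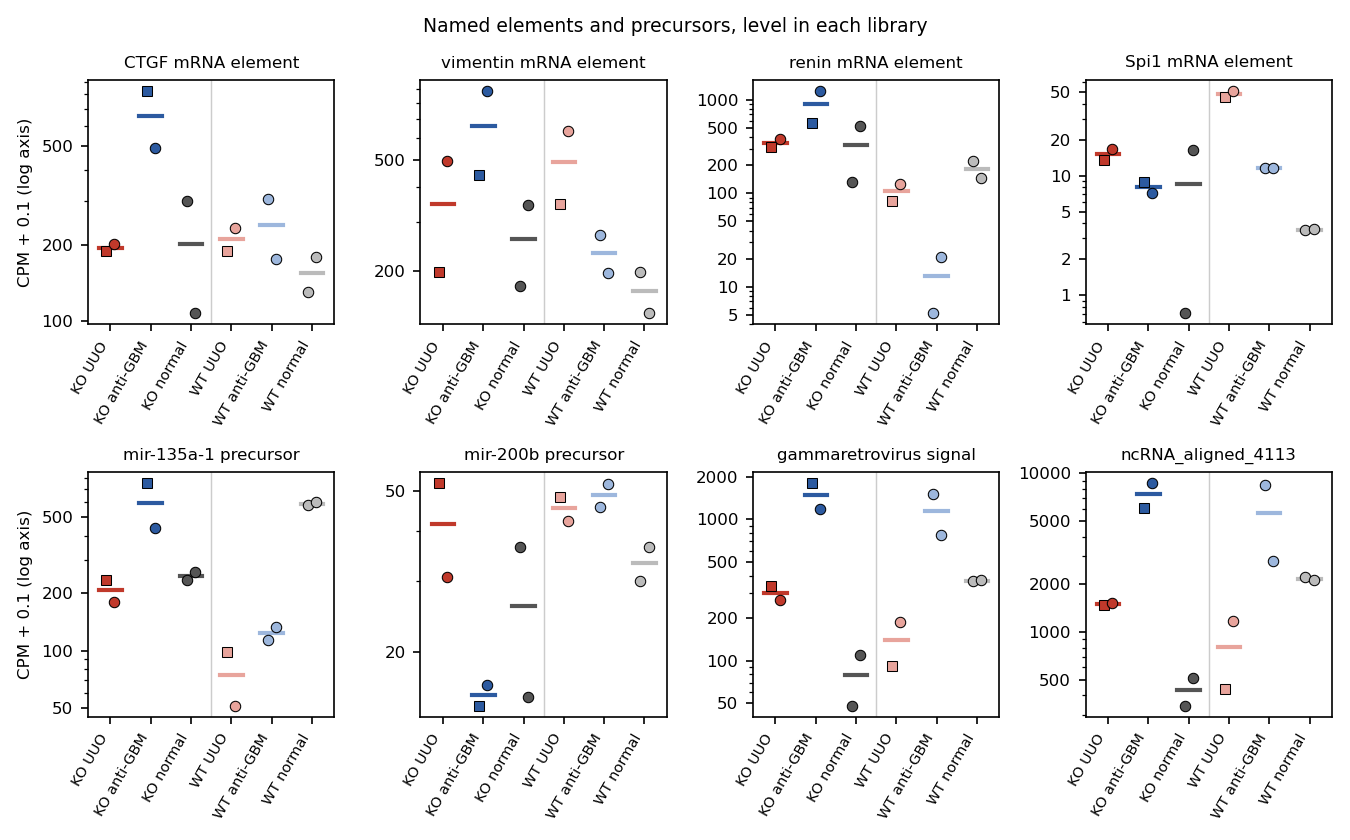
Level of 8 named elements and precursors in each library, as CPM + 0.1 on a log axis, by group; squares are the 3 libraries of low breadth, circles the others, bars the group means. The CTGF element, the mir-135a-1 precursor, the gammaretrovirus signal and ncRNA_aligned_4113 had both KO anti-GBM libraries above both KO UUO libraries, and the renin element was lowest in WT anti-GBM.

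The selenocysteine insertion sequence is a hairpin in the 3′ untranslated region of selenoprotein mRNAs that makes the ribosome read UGA as selenocysteine; selenoproteins include glutathione peroxidases that protect tubule cells from peroxides. Of 17 transcripts with this match 12 were tested, none passed the adjusted threshold, and 7 had an unadjusted p under 0.05 with UUO lower (58.3%, against 8.55% of matched and 4.5% of all transcripts) and 1 with UUO higher (8.33%, against 5.48% and 8.57%, near the background). Their median log2 difference was -1.39, against -0.10 for all matched transcripts, and it was -1.32 in the low-breadth pair and -1.68 in the higher-breadth pair. Between the same models in WT, which are not balanced in breadth, it was -1.17.

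The selenocysteine match of smallest p was ncRNA_aligned_6494, with 764 and 1047 CPM in UUO against 1994 and 3862 CPM in anti-GBM and 2068 and 2692 CPM in KO normal (log2 difference -1.69 ± 0.39, adjusted p = 0.107). ncRNA_aligned_2294 had 919.5 and 1797 CPM in UUO against 2295 and 6866 CPM in anti-GBM and 2774 and 4015 CPM in KO normal, and ncRNA_aligned_5109 had 486 and 1277, 1554 and 4719 and 2495 and 3847 CPM. In all 3 both UUO libraries were below both normal libraries, and the nephritis libraries lay around the normal level. The share of all tested transcripts with UUO below normal was not counted. ncRNA_aligned_922 was also lower in UUO, 13.3 and 9.03 against 34 and 53 CPM (log2 difference -1.96 ± 0.56, adjusted p = 0.182), with 28 and 27 CPM in KO normal. The member higher in UUO at an unadjusted p under 0.05 was ncRNA_aligned_2317, with 16 and 33.6 CPM in UUO against 2.58 and 4.33 CPM in anti-GBM and 0.609 and 3.86 CPM in KO normal (log2 difference 2.82 ± 0.73, adjusted p = 0.135). It was higher in UUO in WT as well, 112 and 219 against 12.7 and 4.14 CPM.

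The guide RNAs were read through transcripts with a snoRNA or scaRNA match. RNAs over 150 bp were sequenced, so the values are of these transcripts and need not be those of the guide RNAs themselves. Most had a lower level in UUO than in anti-GBM. Of 101 snoRNA matches tested, 71 had a log2 difference below 0 (70.3%, against 53.7% of matched and 39.3% of all transcripts). An unadjusted p was under 0.05 in 20 with UUO lower (19.8%, against 8.55% of matched and 4.5% of all transcripts) and in 2 with UUO higher (1.98%, against 5.48% and 8.57%), and none passed the adjusted threshold. The median log2 difference was -0.71, where matched transcripts had -0.10 and all transcripts 0.43; with library size alone it was -0.0027, where matched transcripts had 0.56. All 7 scaRNA matches had a log2 difference below 0, with a median of -1.18, and 5 of them did not overlap between the groups (71.4%, against 19.7% of matched and 11.4% of all transcripts that were lower without overlap). For ncRNA_aligned_6597 that sign turned to positive under 5 alternative settings. The classes follow the wording of the database match and not the gene name. ncRNA_aligned_7810, matched to the gene Scarna10, was thus counted among the snoRNA matches and not among the 7.

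To show what these guide RNAs are, the genes behind 2 of the 4 snoRNA matches with the smallest p are printed 5′ to 3′ from the NCBIM37 mouse genome (mm9), with the ACA box, the conserved triplet close to the 3′ end that gives the H/ACA family its name, in capitals. Both lie on the minus strand within introns, SNORA79 at chr12:92811870-92812012 in Gtf2a1 and Snora78 at chr17:24856621-24856748 in Snhg9, with an intron of Rps2 on the opposite strand.
SNORA79: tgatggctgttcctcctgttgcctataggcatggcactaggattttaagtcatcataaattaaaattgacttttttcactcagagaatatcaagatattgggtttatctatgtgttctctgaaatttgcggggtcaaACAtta
Snora78: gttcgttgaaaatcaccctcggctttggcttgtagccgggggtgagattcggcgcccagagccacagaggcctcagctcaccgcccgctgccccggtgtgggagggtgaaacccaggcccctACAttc
In both, 3 bases follow the capital triplet.

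The transcript matched to SNORA79, ncRNA_aligned_2426, had 5.32 and 7.70 CPM in UUO against 18 and 109 CPM in anti-GBM and 40.0 and 61.3 CPM in KO normal (log2 difference -3.29 ± 0.74, adjusted p = 0.106). It is 495 bases long and so extends past the 143-base gene. The annotation has 4 genes of that name, and reads that fit several of them may be missing from the counts of uniquely mapped reads. The Snora78 transcript, ncRNA_aligned_6655, had 7.24 and 1.84 CPM in UUO against 33 and 79.8 CPM in anti-GBM and 6.29 and 12.3 CPM in KO normal (log2 difference -3.61 ± 0.92, adjusted p = 0.134). The nephritis libraries were above the normal ones for Snora78, while for SNORA79 they lay on either side of them. ncRNA_aligned_6358, matched to snoU6-77 in an intron of Eif4a1 but 2807 bases long, had 90.3 and 148 CPM in UUO against 304 and 1051 CPM in anti-GBM (log2 difference -2.51 ± 0.53, adjusted p = 0.0988).

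Both transcripts matched to scaRNA6 (U88) were lower in UUO, ncRNA_aligned_975 with 134 and 57.4 against 280.3 and 492 CPM and ncRNA_aligned_5108 with 205 and 94 against 427 and 533 CPM. KO normal had 411 and 422 CPM of the first and 388 and 585 CPM of the second, so UUO was the state that stood apart. Their log2 differences were -2.01 ± 0.49 and -1.68 ± 0.50 (adjusted p = 0.118 and 0.197). The gap between the injuries was wider in the higher-breadth pair than in the low-breadth pair for both (-1.07 and -3.09, and -1.06 and -2.50, low-breadth pair first). Other short abundant RNAs moved with breadth: the RNA of the MRP ribonuclease (ncRNA_aligned_6544, 243 bases), which cuts ribosomal RNA precursors, had 39148 and 5006 CPM in UUO against 82569 and 27567 CPM in anti-GBM, highest in each arm in library 1. Whether breadth of coverage has a part in the snoRNA and scaRNA differences was not tested, and the class medians within the pairs were -0.51 and -0.82 for snoRNAs and -0.70 and -2.50 for scaRNAs.

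MicroRNA precursors are long primary transcripts that are cut to hairpins and then to mature microRNAs, which repress mRNAs through pairing of their seed, bases 2 to 8. RNAs over 150 bp were sequenced, so the values are of primary transcripts and not of the mature strands. The mature strands of the 4 precursors described here are printed from RefSeq (GRCm38.p6) with the seed in capitals.
miR-135a-5p: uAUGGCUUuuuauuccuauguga
miR-135a-1-3p: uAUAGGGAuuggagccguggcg
miR-686: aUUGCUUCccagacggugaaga
miR-707: cAGUCAUGccgcuugccuacg
miR-200b-3p: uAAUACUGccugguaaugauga
miR-200b-5p: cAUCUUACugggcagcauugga
No seed is shared among them. The miR-200 family is known for keeping epithelial cells from taking on a mesenchymal form.

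The transcript with the mir-135a-1 precursor, ncRNA_aligned_6360, had 235 and 179 CPM in UUO against 751 and 438 CPM in anti-GBM and 234 and 259 CPM in KO normal. Both nephritis libraries were above the other KO libraries, and UUO lay near normal (log2 difference -1.52 ± 0.43, adjusted p = 0.179). In WT both injuries were far below normal kidneys, at 98.2 and 51.5 CPM with UUO and 113 and 134 CPM with anti-GBM against 578 and 599 CPM. ncRNA_aligned_7774 (mir-686) had 89.4 and 105 CPM in UUO against 260.2 and 371 CPM in anti-GBM, and ncRNA_aligned_2663 (mir-707) had 45.8 and 76.8 against 248 and 132 CPM, with log2 differences of -1.70 ± 0.42 and -1.63 ± 0.48.

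The transcript with the mir-200b precursor, ncRNA_aligned_7267, went the other way, with 52.3 and 30.6 CPM in UUO against 14.7 and 16.5 CPM in anti-GBM and 36.3 and 15.4 CPM in KO normal. The groups did not overlap, and the log2 difference was 1.41 ± 0.54 (adjusted p = 0.314). In WT the values of both injuries were close, 48.4 and 42.2 CPM with UUO and 45.8 and 52.1 CPM with anti-GBM. ncRNA_aligned_6483 (Mir2139) was also higher in UUO, 283 and 312 against 143 and 102 CPM. As a class the 61 precursors tested had a median log2 difference of -0.04, against -0.10 for all matched transcripts. An unadjusted p under 0.05 was reached by 8 with UUO higher (13.1%, against 8.57% of all and 5.48% of matched transcripts) and by 8 with UUO lower (13.1%, against 4.5% and 8.55%). Without overlap, 26.2% of the 61 were lower and 19.7% higher in UUO, against 19.7% and 15.7% of matched and 11.4% and 22.2% of all transcripts. Among the 29 with a mean of 10 CPM or more over the 12 libraries the median was -0.48, beside -0.29 for such matched transcripts. Of these 29, 13 were lower and 4 higher in UUO without overlap. The counts were 971 and 382 among the 3610 such matched transcripts, and 1103 and 493 among all 4315.

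Predicted and matched transcripts differed in balance. The median log2 difference was 0.84 over 16781 predicted transcripts and -0.10 over 8035 matched ones. An unadjusted p under 0.05 was reached with UUO higher by 1686 predicted transcripts (10%, against 5.48% of matched and 8.57% of all). With UUO lower it was reached by 429 predicted transcripts (2.56%, against 8.55% and 4.5%). Predicted transcripts are most of all those tested, so the share over all is mainly their own. Most predicted transcripts were scarce: of the 4315 tested transcripts with a mean of 10 CPM or more over the 12 libraries, 705 were predicted, and among these the median was -0.25, close to the -0.29 of matched ones. The median over all transcripts depends on the scaling, being 0.43 with TMM, 0.48 with DESeq2's size factors and 1.08 with library size alone, so class medians are read against it. KO UUO 1 and KO UUO 2 listed 26078 and 32495 transcripts, KO anti-GBM 1 and KO anti-GBM 2 listed 17997 and 25434.

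The difference between the injuries ran with transcript length. Among transcripts with a mean of 10 CPM or more, the 76 shorter than 300 bases had a median log2 difference of -1.18, the 468 of 300 to under 1000 bases -0.78, the 1245 of 1000 to under 3000 -0.49, the 1472 of 3000 to under 6000 -0.21 and the 1054 of 6000 or more bases -0.04. The same order appeared within the low-breadth pair, from -1.03 to -0.16, and within the higher-breadth pair, from -1.24 to 0.03. It also appeared between the same models in WT, which are not balanced in breadth, from -0.78 to -0.04. Of the transcripts under 300 bases, 31.6% had an unadjusted p under 0.05 with UUO lower, and of those of 6000 or more bases 6.36%. The 15 transcripts named by the rule as higher in UUO had a median length of 5116 bases and the 15 lower in UUO 1892 bases. The part of transcript length in the differences of single transcripts and of the small RNA classes was not tested.

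**Figure D3:**
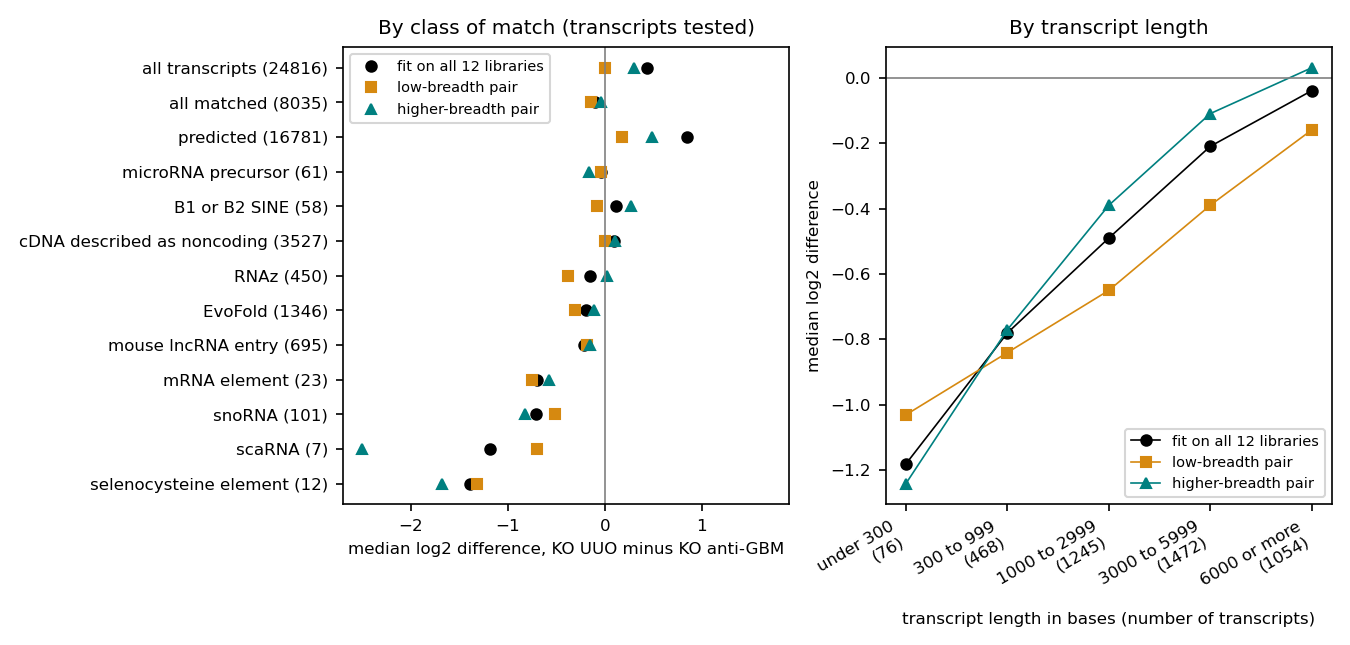
Median log2 difference, KO UUO minus KO anti-GBM, by class of database match (left, transcripts tested in parentheses) and by transcript length (right, transcripts with a mean of 10 CPM or more, number in parentheses); circles are the fit on 12 libraries, squares the low-breadth pair and triangles the higher-breadth pair. Selenocysteine elements and scaRNAs had the lowest medians of the classes drawn, and the medians climbed from -1.18 in the shortest to -0.04 in the longest transcripts.

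Within the pairs of libraries, 69.4% of 4315 transcripts had the same sign of difference in both, and the correlation of the differences across transcripts was 0.45 (Pearson's r, a description over transcripts of 4 libraries). All 30 transcripts described by the rule, 15 higher and 15 lower in UUO, had the same sign in both pairs, which the lack of overlap asked of them fixes. In the fit on the 9 libraries of higher breadth, with 1 KO UUO and 1 KO anti-GBM library that are assumed to vary like the other groups, 12 of the 15 higher and 14 of the 15 lower passed the adjusted threshold, in a fit where 677 transcripts (2.73%) did. With breadth as a covariate 14 and 15 passed, among 866 (3.49%). Both fits reuse the libraries that chose the transcripts.

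**Figure D4:**
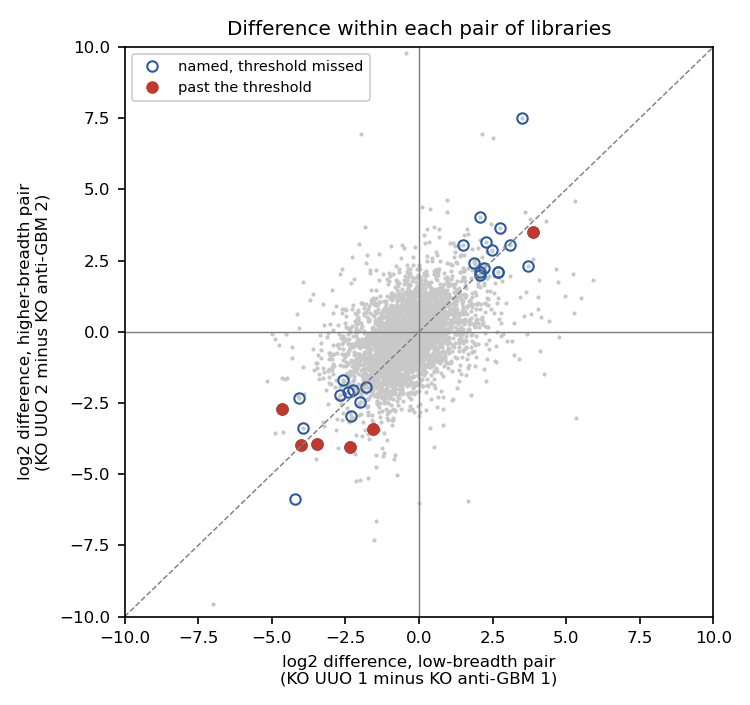
Log2 difference between the injuries within the low-breadth pair (horizontal) and within the higher-breadth pair (vertical), 1 grey point for each of 4315 transcripts with a mean of 10 CPM or more; filled circles passed the threshold, open circles are the other named transcripts, and the dashed line marks equal differences. The named transcripts lie in the lower left and upper right, with the same sign in both pairs.

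Between WT and KO, which share no libraries, 63.8% of the 4315 transcripts had the same sign of difference between the injuries (Pearson's r = 0.311 across transcripts). Of the 15 described as higher in KO UUO, 9 were also higher in WT UUO without overlap and 6 overlapped, where 20% of all transcripts were higher without overlap. Of the 15 lower, 10 were lower in WT UUO without overlap, where 20.6% of all were, 4 overlapped and 1, ncRNA_aligned_777, was the other way round. The interaction passed the adjusted threshold for 1 of 24816 transcripts (0.00403%), ncRNA_aligned_4910, a transcript of 2448 bases matched to the cDNA AK020541, described as noncoding. In KO it had 15.9 and 33.1 CPM with UUO and 13.7 and 24.6 CPM with anti-GBM, overlapping values near those of KO normal (25.8 and 31.3 CPM). In WT it was almost missing after obstruction, 0.447 and 0.252 CPM, against 24.3 and 12.3 CPM with anti-GBM and 62.6 and 95.6 CPM in normal kidneys. The KO difference was 0.35 ± 0.57, the WT difference -5.70 ± 0.75 and the interaction 6.05 ± 0.93 (adjusted p = 0.0308). The call held in 3 of 12 fits without 1 library, those without KO UUO 1, KO UUO 2 or WT anti-GBM 2, and the other 9 reached adjusted p up to 0.161. It was also lost in the 8 injured libraries alone, with limma at either RPKM offset and with voom, with adjusted p up to 0.974. The transcript was among the fixed readouts because of earlier results of these data, so the call is not independent of them.

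**Figure D5:**
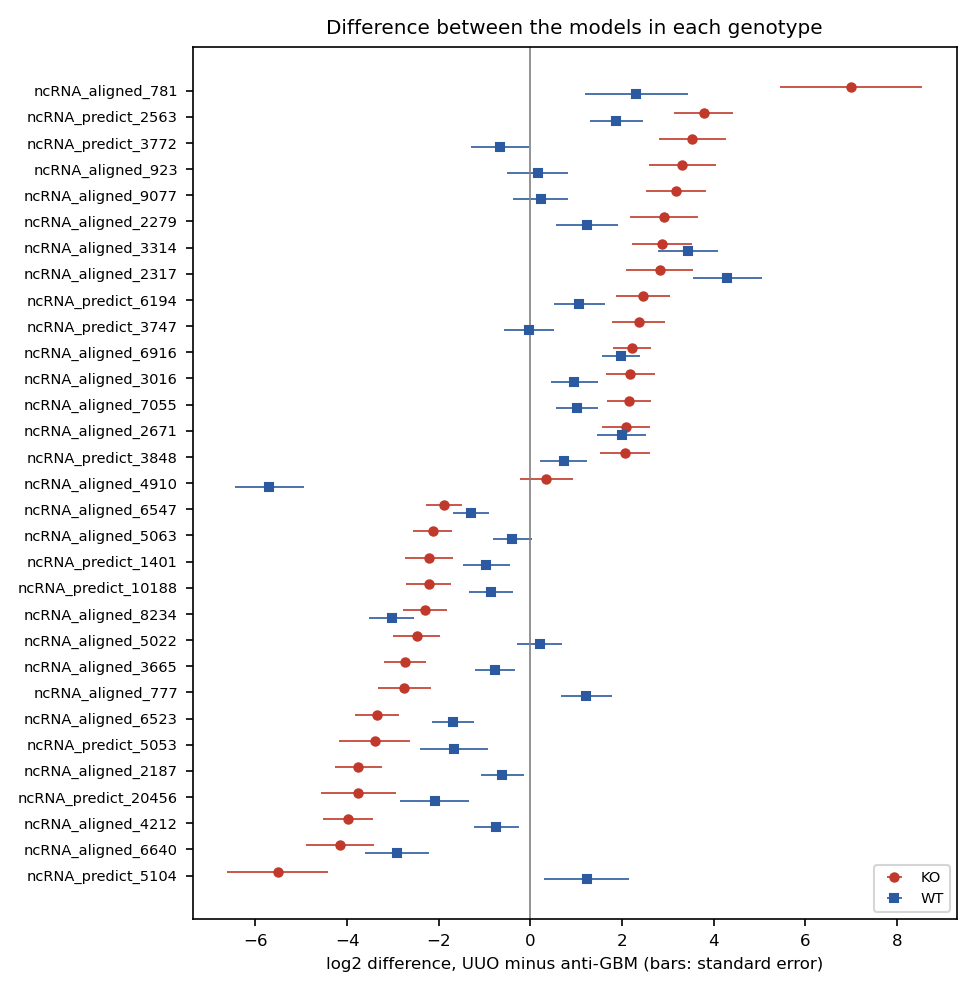
Log2 difference, UUO minus anti-GBM, with its standard error, in KO (circles) and WT (squares) for the 30 transcripts described by the rule and for ncRNA_aligned_4910. The latter, not chosen by the rule, has a KO difference near 0 (0.35) and a WT difference of -5.70. The rule chose the 30 by their KO difference, which keeps them away from 0 in KO.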

How the data were processed

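Per the file headers, each deposited table gives a transcript's uniquely mapped reads as counts, its RPKM, the percent of its length covered and its mean depth of coverage (signal). The submitters' processing notes name Bowtie 0.12.7 and the mm9 build; transcript assembly, read assignment and strand setting are not given in the sources used here, so reads of transcripts that overlap, on either strand, may be mixed. The authors' RPKM equal reads per length and per listed total.

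Transcripts absent from a library's table entered as 0. Counts of all 12 libraries were tested with edgeR 4.0.16 (R 4.3.3): TMM, filterByExpr by group, 1 mean per group, robust quasi-likelihood F test, Benjamini-Hochberg adjusted p under 0.05. Standard errors come from the F statistic. Breadth used transcripts over 500 bases with 20 to 200 reads. Log2 CPM of single libraries used a prior count of 2.

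Counts of the KO UUO against KO anti-GBM comparison were simulated for the 24816 transcripts. The changed ones were drawn from transcripts with a mean of 10 CPM or more, so the recovery does not cover scarcer ones. The test called 91 of 100 changed by log2 4 and 13 of 100 changed by log2 2. It also called 17 unchanged ones, a larger share of its calls than the adjusted threshold is set to allow. Counts were drawn independently, without low breadth of coverage, so the recovery need not hold for the real libraries. Named were all matched calls, matched transcripts of smallest p without overlap and with a mean of 10 CPM or more up to 10 per direction, up to 5 predicted ones per direction, and fixed readouts; the snoRNA, scaRNA and other microRNA precursor transcripts were chosen after their values were seen. Members and lists were chosen with earlier results of these data known. Alternatives were other scalings and filters, other sample sets, breadth as a covariate, DESeq2 1.42.0, and limma 3.58.1 on log2(RPKM + 1), log2(RPKM + 0.1) and voom values.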

Additional observations from a re-analysis of the deposited data

Results flagged for a closer look

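The difference between the injuries differed between genotypes by test for ncRNA_aligned_4910, with an interaction of 6.05 on the log2 scale (adjusted p = 0.0308): its level was 15.9 and 33.1 CPM in KO UUO and 13.7 and 24.6 CPM in KO anti-GBM, against 0.447 and 0.252 CPM in WT UUO and 24.3 and 12.3 CPM in WT anti-GBM.

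For 3 other transcripts described above, all libraries of one genotype went one way and all of the other genotype the opposite way. None passed the test of that difference. The fixed readouts ncRNA_aligned_2421 and ncRNA_aligned_931 also went opposite ways, with UUO above anti-GBM in KO and below it in WT. Their interactions, 6.59 (adjusted p = 0.0667) and 5.27 (adjusted p = 0.212), did not pass either. How many of all tested transcripts did so is not given here. ncRNA_aligned_777 had an interaction of -3.97 (adjusted p = 0.128), with UUO below anti-GBM in KO and above it in WT. ncRNA_aligned_2307, with the renin element, had -4.41 (adjusted p = 0.473), in the same directions, and WT anti-GBM held its 2 lowest levels, 5.12 and 20.6 CPM. ncRNA_aligned_6483, matched to Mir2139, had 2.14 (adjusted p = 0.495), with 283 and 312 CPM in KO UUO above 143 and 102 CPM in KO anti-GBM, and 223 and 128 CPM in WT UUO below 368 and 269 CPM in WT anti-GBM.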

How the results depend on the processing

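No paired analysis was possible because the labels give no replicate numbers that recur across groups. The breadth pairs and the breadth covariate used here come from measured coverage and not from the labels. The count of calls between the KO injuries, 6, was 177 with library size alone, 218 without a filter, 1 with a mean of 10 CPM or more, 30 in the 4 libraries alone, 677 in the 9 libraries of higher breadth, 866 with breadth as a covariate, 454 with DESeq2's test, 0 with limma on log2(RPKM + 1) (3996 at an unadjusted p under 0.05), 13 on log2(RPKM + 0.1) and 1 with voom; without 1 library it was between 0 and 91. The interaction count, 1, was 4 with DESeq2's size factors, 3 with library size alone, 56 without a filter and 101 in the 9 libraries. It was 84 with the covariate, 57 with DESeq2's test and 18 with limma on log2(RPKM + 1). ncRNA_aligned_4910 was among the calls of each of these settings except limma on log2(RPKM + 1). The interaction count was 0 in the 8 injured libraries, on log2(RPKM + 0.1) and with voom, where 1196, 2242 and 1213 had an unadjusted p under 0.05. Without 1 library it was between 0 and 4. Of the differences of single transcripts named, 7 values reversed: ncRNA_aligned_4910 had -0.01 without KO anti-GBM 1 and -0.27 without KO UUO 2 (-0.27 to 0.84 without 1 library), and ncRNA_aligned_6597 had 0.48 with library size alone, 0.00855 with a mean of 10 CPM or more, 0.094 without KO UUO 2 (-1.02 to 0.094 without 1 library), and 0.25 with limma at either RPKM offset. Another 1463 kept their direction and side of the threshold, 234 gained a call and 42 lost one. The causes were not tested. With 2 libraries a group, no call was tested on an independent set, and counts below about 3 reads set the limit of detection.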

Other observations

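Detection differed between the arms beyond the transcripts compared above. Of 39010 transcripts listed in any of the 4 libraries, 3435 had a read in both KO UUO libraries and none in either KO anti-GBM library, and 348 the reverse. With 10 or more reads asked in both libraries of an arm and 0 in both of the other, 219 were found in UUO alone, 41 of them matched, and 12 in anti-GBM alone, 3 of them matched. None of these passed the adjusted threshold. The UUO libraries listed 26078 and 32495 transcripts and the anti-GBM libraries 17997 and 25434, and the part of this in the counts was not tested.

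Against a floor of 3 counts over the group at 0, ncRNA_aligned_786, matched to the same cDNA as ncRNA_aligned_781, was at least 53.2-fold higher in UUO, with 30 and 194 reads; without KO UUO 2 the bound was 9.54-fold and without KO UUO 1 96.9-fold. KO normal libraries had 32 and 28 reads of it, so the nephritis libraries were those without reads among the KO libraries. In WT it had 80 and 6 reads with UUO and 8 and 42 with anti-GBM, which overlap. ncRNA_aligned_7770 (cDNA AK036748) had 87 and 55 reads in UUO and 3 and 10 in KO normal. Its UUO level was at least 27.6-fold higher than that of anti-GBM (adjusted p = 0.0749). In WT it had 92 and 267 reads with UUO and 22 and 6 with anti-GBM. In the other direction, the predicted ncRNA_predict_7953 had 34 and 128 reads in anti-GBM and 2 and 4 in KO normal, at least 87.0-fold higher in anti-GBM than in UUO (adjusted p = 0.0988). Without KO anti-GBM 2 that bound was 44.9-fold. WT anti-GBM libraries had 0 and 2 reads of it. Floors cover counting error only.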
